A study of Mus musculus with 8 samples.

Results

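Cells build cholesterol from acetyl units along a chain of enzymes, and the stretch described here runs from HMG-CoA synthase to lanosterol, the first sterol. It comprises 9 genes: Hmgcs1, Mvk, Pmvk, Mvd, Idi1, Fdps, Fdft1, Sqle and Lss. They were chosen by name, with earlier results of these data known. Each was represented by the probe set annotated to that gene alone with the highest mean over all arrays. All 9 were found among the 18820 genes measured. The 8 arrays came from epididymal white adipose tissue, a visceral fat pad at the testis, taken from male mice of strain C57BL/6. Every animal had 2 weeks on a diet with 10% of its energy from fat and then 16 weeks on one with 45%. Of these arrays 4 came from wild-type mice, purchased, and 4 from mice overexpressing human IL37, a cytokine that restrains inflammation, from a transgene on the same strain background. The promoter and the cell types that drive the transgene are not stated in the labels. No probe set of the annotation carried its name, which leaves the genotype labels unchecked here. The labels do not say that replicates came from separate mice, and the p-values therefore cover only the spread from sample to sample, which may be technical.

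The early enzymes of this chain make and activate mevalonate, the middle ones turn it into the isoprene unit and join such units into farnesyl diphosphate, and the last ones join farnesyl units into squalene and fold it into lanosterol. Farnesyl diphosphate is also the branch point to ubiquinone, dolichol and the lipid anchors of proteins. The transcription factor SREBP-2, released from the endoplasmic reticulum when its membrane is poor in sterol, switches on the genes of the chain together. Its partners on promoters include NF-Y, which binds CCAAT boxes, and Sp1, which binds GC boxes. Fat cells make little cholesterol compared with liver but store much of the body's free cholesterol in their droplets.

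The promoters are shown first because members of 1 pathway that share a regulator can be compared in their sequence. The RefSeq promoter table (build GRCm38.p6) held 6 of the 9 members. The 250 bases before the start are printed for Mvk, Mvd and Lss, which were lower in transgenic fat, and for Hmgcs1, which was not called. Capitals mark every match, on either strand, to CCAAT (NF-Y; ATTGG on the other strand), to GGGCGG (Sp1; CCGCCC on the other strand) and to the sterol regulatory element core TCACNCCAC. None of these motifs contains another. The windows are chr5:114444019-114444268 on the plus strand for Mvk, chr8:122443423-122443672 on the minus strand for Mvd, chr10:76531355-76531604 on the plus strand for Lss and chr13:119690101-119690350 on the plus strand for Hmgcs1.
Mvk: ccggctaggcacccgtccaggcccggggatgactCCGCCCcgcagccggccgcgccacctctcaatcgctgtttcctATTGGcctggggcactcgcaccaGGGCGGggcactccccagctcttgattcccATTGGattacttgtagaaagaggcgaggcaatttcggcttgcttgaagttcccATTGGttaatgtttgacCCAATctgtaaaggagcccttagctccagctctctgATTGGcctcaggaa
Mvd: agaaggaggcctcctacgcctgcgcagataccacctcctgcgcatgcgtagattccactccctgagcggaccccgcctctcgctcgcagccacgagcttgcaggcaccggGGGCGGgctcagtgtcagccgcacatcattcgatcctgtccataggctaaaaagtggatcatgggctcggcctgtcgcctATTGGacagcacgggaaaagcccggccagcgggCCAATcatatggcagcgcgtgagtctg
Lss: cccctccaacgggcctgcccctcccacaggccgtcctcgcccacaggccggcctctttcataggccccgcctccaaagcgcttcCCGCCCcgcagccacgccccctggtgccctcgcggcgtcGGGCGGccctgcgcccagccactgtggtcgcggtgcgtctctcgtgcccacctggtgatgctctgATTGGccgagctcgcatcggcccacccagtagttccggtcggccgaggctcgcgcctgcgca
Hmgcs1: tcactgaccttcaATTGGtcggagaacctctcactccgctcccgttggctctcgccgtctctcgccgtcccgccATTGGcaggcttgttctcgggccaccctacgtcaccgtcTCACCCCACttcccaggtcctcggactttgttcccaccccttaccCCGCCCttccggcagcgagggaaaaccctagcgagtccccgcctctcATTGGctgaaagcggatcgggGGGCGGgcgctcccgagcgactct

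A CCAAT box was found in a window of all 6 member genes in the table, against 33.8% of all 32851 windows. The Mvk window held 5, that of Hmgcs1 3, those of Mvd and Idi1 2 each, that of Lss 1 and the first of the 2 Pmvk windows 1. A GC box was found for 5 of the 6 genes, against 32.7% of all windows, and Pmvk was the gene without one in either of its windows. The core TCACNCCAC was found in the Hmgcs1 window alone among the members, beginning 137 bases before the start, and in 1.05% of all windows. The same core with an A before it was in no member window and in 0.192% of all windows. These matches are letters in a window and do not show that a factor binds there. The starts of Mvk and Mmab, which encodes an enzyme of vitamin B12 metabolism, lie head to head with 241 bases between them, so that both windows hold the same 5 CCAAT boxes.

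Of the 9 enzymes 4 had less RNA in transgenic than in wild-type fat: Mvk, Mvd, Sqle and Lss. Their levels were 1.28-fold, 1.59-fold, 1.60-fold and 1.51-fold lower. None of the 9 was called higher. Of all 18820 genes 1.27% were called lower and 2.07% higher at the same threshold (limma, Benjamini-Hochberg adjusted p at most 0.05 over all genes), and 4 of the 9 members, or 44.4%, were called lower. The median difference over the members was -0.36 log2 units, and over all genes it was 0.02. The groups did not overlap for the same 4 members, against 5.73% of all genes with every transgenic array below every wild-type array. Because the members were chosen with earlier results of these data known, these contrasts with all genes are a description and no test. In bulk tissue, fewer cells of a type and less RNA per cell cannot be told apart.

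**Figure D1:**
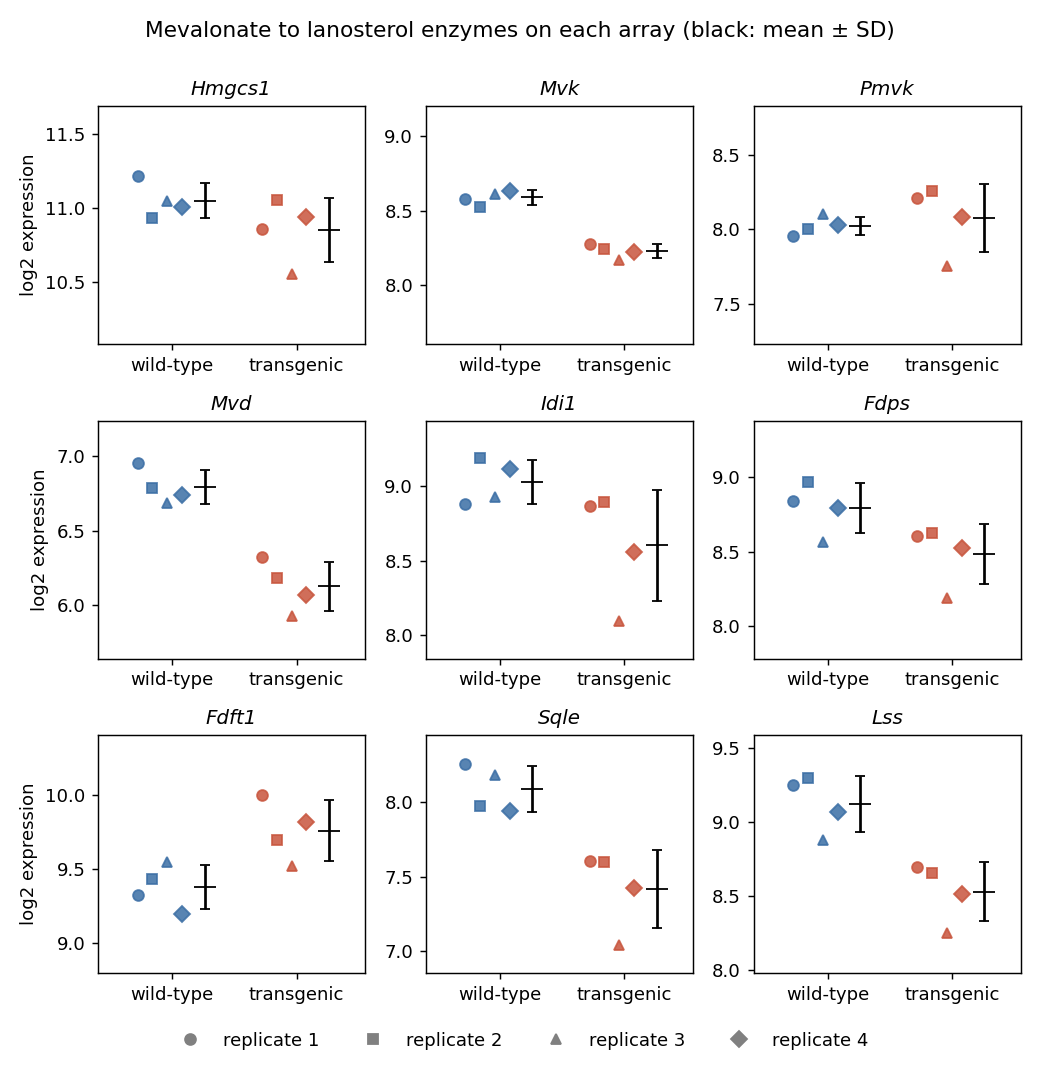
Log2 expression of the 9 enzymes on each of the 8 arrays, 1 panel per gene with an axis spanning the same range of log2 units; the shape gives the replicate, and the black bar the mean ± SD of 4 arrays. For Mvk, Mvd, Sqle and Lss all 4 transgenic arrays lie below all 4 wild-type arrays, and transgenic replicate 3 is the lowest transgenic array in all 9 panels.

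The chain begins with Hmgcs1, the cytosolic HMG-CoA synthase that condenses acetyl and acetoacetyl units. Its log2 levels were 11.21, 10.93, 11.05 and 11.01 in wild-type replicates 1 to 4 and 10.86, 11.06, 10.55 and 10.94 in transgenic replicates 1 to 4. The groups overlapped, with 2 transgenic arrays below the lowest wild-type array. The difference was -0.20 log2 units (95% confidence interval -0.46 to 0.06, limma adjusted p = 0.369). Without transgenic replicate 3 it was -0.10.

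Mvk, the mevalonate kinase that adds the first phosphate to mevalonate, had the tightest values of the 9. Its wild-type arrays read 8.58, 8.53, 8.61 and 8.64 and its transgenic arrays 8.28, 8.25, 8.17 and 8.22. Every transgenic array lay below every wild-type array, and the gap between the groups was wider than the range within either. The means were 8.59 ± 0.05 and 8.23 ± 0.05 (SD, n = 4 per group), a difference of -0.36 (SE 0.05, limma adjusted p = 0.0165). Mmab, its neighbour across the shared promoter, differed by -0.19 (95% confidence interval -0.40 to 0.01, limma adjusted p = 0.274) and its groups overlapped.

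Pmvk, the phosphomevalonate kinase that adds the second phosphate, showed no difference past the threshold. It read 7.96, 8.00, 8.10 and 8.03 in wild-type and 8.21, 8.26, 7.75 and 8.09 in transgenic fat. Transgenic replicates 1 and 2 were above every wild-type array and replicate 3 below every one. The difference was 0.05 (95% confidence interval -0.20 to 0.31, limma adjusted p = 0.822), and 0.16 without transgenic replicate 3.

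Mvd, the decarboxylase that ends the mevalonate steps by making isopentenyl diphosphate, was lower. Its levels were 6.95, 6.79, 6.69 and 6.74 in wild-type and 6.32, 6.18, 5.93 and 6.07 in transgenic fat, again without overlap. The means were 6.79 ± 0.11 and 6.12 ± 0.17 (SD, n = 4), a difference of -0.67 (SE 0.10, limma adjusted p = 0.0170). Its mean over all arrays lay under that of the median gene (6.74) and above the 25th percentile of gene means (4.49).

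Idi1 interconverts both isomers of the isoprene unit, and Fdps joins these units into farnesyl diphosphate. Idi1 read 8.88, 9.19, 8.93 and 9.12 in wild-type and 8.87, 8.90, 8.09 and 8.56 in transgenic fat. Its transgenic replicates 1 and 2 lay close to wild-type replicates 1 and 3, while replicate 3 stood well below. The difference was -0.42 (95% confidence interval -0.83 to -0.02, limma adjusted p = 0.223), and -0.25 without transgenic replicate 3. A second probe set of Idi1 differed by -0.45 (limma adjusted p = 0.170 over all single-symbol probe sets) and followed the first over the 8 arrays (Pearson r = 0.996, a description over probe sets of the same RNA). Fdps read 8.84, 8.97, 8.57 and 8.79 in wild-type and 8.60, 8.63, 8.19 and 8.52 in transgenic fat. Only wild-type replicate 3 reached down among the transgenic values. The Fdps difference was -0.31 (95% confidence interval -0.58 to -0.03, limma adjusted p = 0.201). The intervals of both genes are for single genes and lay below 0, but neither passed over all genes.

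Fdft1, squalene synthase, commits farnesyl diphosphate to sterols, and it was the member whose mean was highest relative to wild type. It read 9.33, 9.44, 9.55 and 9.20 in wild-type and 10.00, 9.70, 9.52 and 9.82 in transgenic fat. In 3 of the 4 transgenic arrays it was above every wild-type array, and transgenic replicate 3 lay just under wild-type replicate 3. The difference was 0.38 (95% confidence interval 0.12 to 0.65) and did not pass over all genes (limma adjusted p = 0.115). Without wild-type replicate 3 and transgenic replicate 3 together, a choice made after the values were seen that was bound to widen the gap, it was 0.52 and passed (limma adjusted p = 0.0493). It also passed with arrays weighted by their fit (0.47, limma adjusted p = 0.0460).

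Sqle, squalene epoxidase, is the oxygen-using step after squalene and a known control point of the chain. It read 8.26, 7.98, 8.18 and 7.94 in wild-type and 7.60, 7.60, 7.04 and 7.42 in transgenic fat, with no overlap. The means were 8.09 ± 0.16 and 7.42 ± 0.26 (SD, n = 4), a difference of -0.67 (SE 0.14, limma adjusted p = 0.0440). Lss, the cyclase that folds epoxidised squalene into lanosterol, read 9.25, 9.30, 8.88 and 9.07 in wild-type and 8.70, 8.66, 8.25 and 8.51 in transgenic fat, also with no overlap. Its means were 9.12 ± 0.19 and 8.53 ± 0.20 (SD, n = 4), a difference of -0.59 (SE 0.13, limma adjusted p = 0.0481). Both calls lay close to the threshold.

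The calls of the members rested on all arrays being present, and calls over all genes moved with the arrays too. Dropping 1 wild-type array turned the 629 calls over all genes into 110, 161, 1188 and 82, in the order of replicates 1 to 4. Dropping 1 transgenic array gave 209, 136, 424 and 231 in the same order. Calls over all genes thus fell in every such fit except that lacking wild-type replicate 3, and their loss was not particular to the members. When single arrays were left out, the number of members past the threshold fell to 0 on leaving out replicate 1 or 4 of the wild type or replicate 2 of the transgenic group, and was 1 without wild-type replicate 2. It was 2 without transgenic replicate 1 or transgenic replicate 4, and 3 without wild-type replicate 3 or transgenic replicate 3. Mvk passed in 5 of the 8 such fits and ranged from -0.38 to -0.34. Mvd passed in 4 and ranged from -0.73 to -0.60. Sqle passed only without transgenic replicate 3 (range -0.74 to -0.55) and Lss only without wild-type replicate 3 (range -0.67 to -0.50). The sizes of these differences thus moved little while the adjusted p-values crossed the threshold, and they reached 0.0680 for Mvk, 0.0632 for Mvd, 0.126 for Sqle and 0.134 for Lss. Because the groups of these 4 genes did not overlap, their direction on leaving out an array was fixed in advance.

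**Figure D2:**
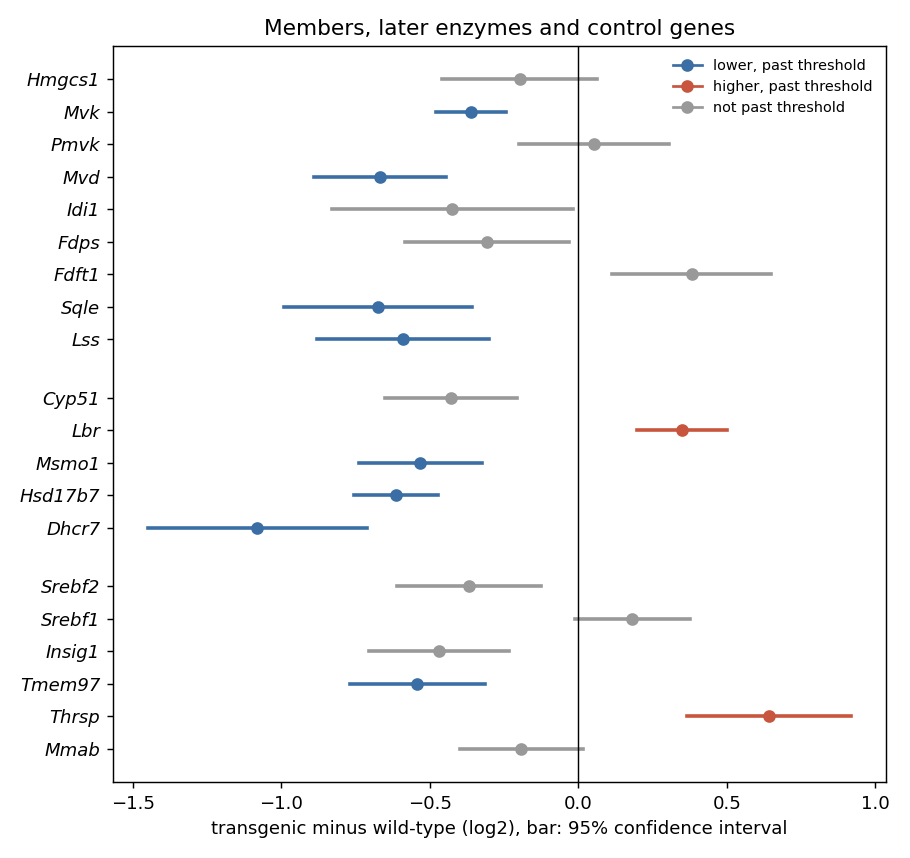
Transgenic minus wild-type difference in log2 units (point) with its 95% confidence interval (bar) for the 9 enzymes in pathway order, then later enzymes, then genes of sterol control and related targets; blue and red mark genes past the threshold. Within the chain Mvk (-0.36), Mvd (-0.67), Sqle (-0.67) and Lss (-0.59) are blue, and the Fdft1 interval lies above 0 without passing over all genes.

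The differences of the members ran from -0.67 for Sqle to 0.38 for Fdft1. To compare them along the chain, the log2 ratio of each enzyme to the one before it was taken within each array, for all 8 neighbouring pairs, after the values had been seen. For 4 pairs the groups did not overlap. The Sqle to Fdft1 ratio differed between the groups by -1.06 log2 units. The Fdft1 to Fdps ratio differed by 0.69, the Mvd to Pmvk ratio by -0.72 and the Pmvk to Mvk ratio by 0.42. Each of the 4 had an exact two-sided permutation p of 0.0286, which is the lowest possible with 4 arrays a group, and 0.0571 after adjustment over the 8 pairs, so that none passed. The Lss to Sqle ratio differed by 0.08 (exact permutation p = 0.657, adjusted 0.657). A shift of such a ratio compares the group differences of a pair of genes, since the ratio itself depends on the probes and has no meaning as a level. With 4 of the 8 pairs at the lowest possible p, none of them could pass after adjustment. The test therefore cannot decide whether neighbours differed unequally.

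Transgenic replicate 3 had the lowest transgenic value for all 9 members and the lowest value of all 8 arrays for 8 of them, Fdft1 being the exception. Over all genes this array was the lowest transgenic array for 26.1% and the lowest of all 8 for 12.2%. Its distance from the mean of the other transgenic arrays was smallest for Mvk (-0.08) and largest for Idi1 (-0.68). For Sqle it was -0.50, for Pmvk -0.43, for Hmgcs1 -0.40 and for Fdps -0.39. The SD was larger in transgenic than in wild-type fat for 8 of the 9 members, Mvk being the exception, against 54.7% of all genes. The mean level of the 9 probe sets was 8.73 to 8.81 in the wild-type arrays and 8.60, 8.58, 8.17 and 8.46 in transgenic replicates 1 to 4.

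**Figure D3:**
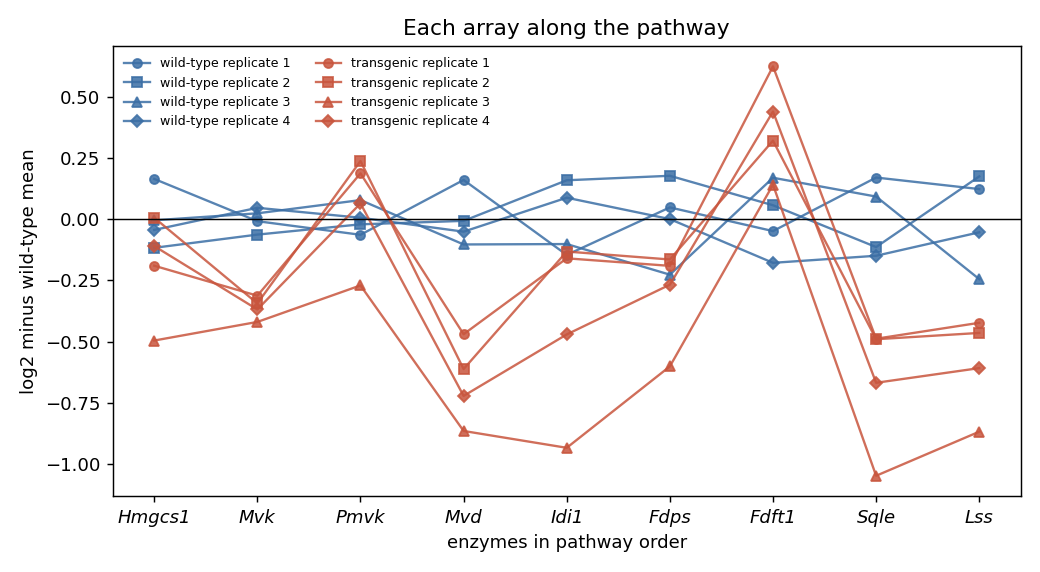
Log2 level of each array minus the wild-type mean (vertical) for the 9 enzymes in pathway order (horizontal), with wild-type arrays in blue and transgenic arrays in red. The transgenic arrays lie below the wild-type arrays at Mvk, Mvd, Sqle and Lss and mostly above them at Fdft1, and the line of transgenic replicate 3 runs below the other transgenic lines throughout.

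Within groups the members varied together mainly through that array. Taking each array's deviation from its group mean, all 36 pairs of members correlated above 0, with a median Pearson r of 0.58 (range 0.12 to 0.97, 8 arrays, a description). Without transgenic replicate 3 the median was 0.06 and 21 of the 36 pairs were above 0. The pair of Fdps and Lss kept the closest likeness, at 0.97 with all arrays and 0.95 without that array. Outside the chain, the 5 genes whose deviations were most like those of the members' mean over the 8 arrays were Pomt1 (r = 0.991), Zfyve21 (0.988), Mir687 (0.985), Uchl3 (0.980) and Ptger3 (0.980). None of the 5 was called between the groups, with differences of 0.14, 0.13, 0.04, -0.18 and 0.45. All 5 had their lowest value in transgenic replicate 3, so that leaving it out was bound to raise their differences. Without that array these were 0.29, 0.25, 0.21, -0.06 and 0.70, and Ptger3 passed (limma adjusted p = 0.0136). The r values of the 5 were not computed without it.

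The array names hold a letter and a number that the labels do not explain, and these were uneven between the groups. Among arrays with the number 5, 7 and 9 the Mvk difference was -0.37, -0.44 and -0.28, and that of Sqle -0.58, -1.06 and -0.46. Mvd differed by -0.51, -0.92 and -0.59 and Lss by -0.22, -0.90 and -0.69. The number 7 set, which holds transgenic replicate 3, had the most negative value for each of these genes. Among the letter G arrays, the single letter with both groups, Mvk differed by -0.35, Mvd by -0.39, Sqle by -0.46, Lss by -0.27 and Fdft1 by 0.63. No member passed with either the letter or the number as a block. With the letter as a block the comparison rests on the G arrays, 1 transgenic against 2 wild-type, with the lone array assumed to vary like the others, so that it says little about the calls; the limma adjusted p-values ran from 0.256 for Mvk to 0.939 for Fdps. With the number as a block those of the 4 called members ran from 0.0698 for Mvd to 0.101 for Lss. With transgenic replicates 2 and 3 removed together, since their names carry an unexplained suffix, no member passed either. Over all genes, calls fell from 629 in the main fit to 72 with the number as a block and to 18 without transgenic replicates 2 and 3. The loss of calls was thus not particular to the members.

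**Figure D4:**
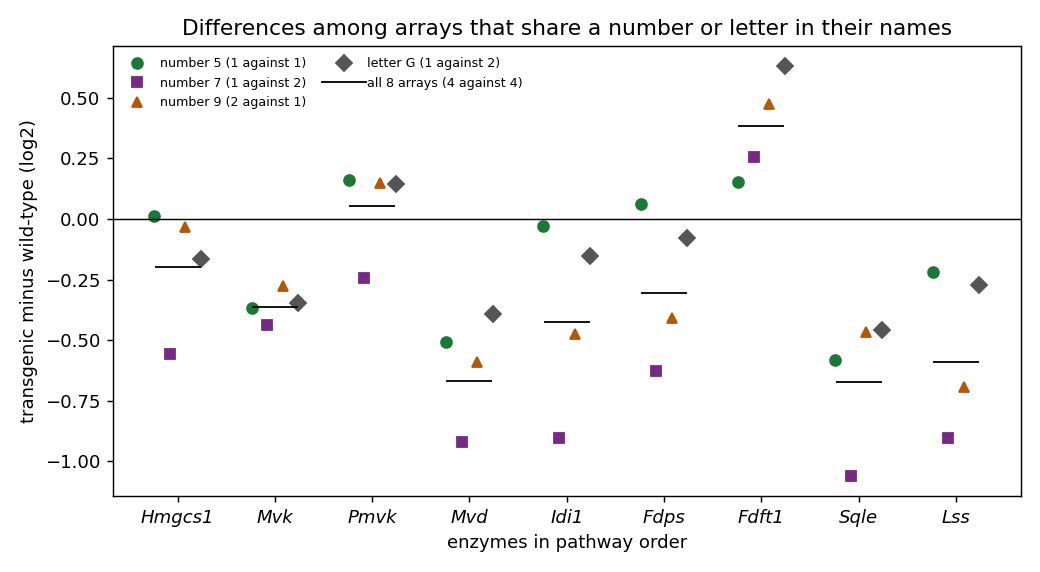
Transgenic minus wild-type difference in log2 units for each enzyme among arrays that share the number 5, 7 or 9 or the letter G in their names (symbols, with the number of transgenic against wild-type arrays), beside the difference over all 8 arrays (black dash). The number 7 set, with transgenic replicate 3, gives the lowest value for 8 of the 9 enzymes, and Fdft1 is above 0 in every set.

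Beyond lanosterol, of 9 measured genes of the steps to cholesterol 3 were lower and 1 higher, where 1.27% and 2.07% of all genes were. The median difference of the 9 was -0.32, and 8 were below 0, against 44.7% of all genes. The lower genes were Hsd17b7, a keto-reductase of the demethylation steps (-0.61, SE 0.06, limma adjusted p = 0.00535), Msmo1, the methyl sterol oxidase (-0.53), and Dhcr7, the last reductase (-1.08). The higher gene was Lbr, a sterol reductase that also anchors chromatin to the nuclear lamina (0.35, SE 0.07, limma adjusted p = 0.0347). Cyp51, the demethylase that takes up lanosterol, had groups that did not overlap and differed by -0.43, just short of the threshold (limma adjusted p = 0.0552). Hsd17b7 passed in each of the 8 fits with 1 array left out, which no member did. Calls were kept in 4 such fits for Dhcr7 and in 2 each for Msmo1 and Lbr.

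None of the 13 measured genes of the isoprenoid branches (prenyl transferases, dolichol and ubiquinone enzymes) passed, and their median difference was -0.00308 log2 units, that of Ggps1, which lengthens the product of Fdps (limma adjusted p = 0.986). Nus1, a subunit of the dolichol-making enzyme, differed by -0.34 (limma adjusted p = 0.0751) and Coq2, of ubiquinone synthesis, by 0.29 (limma adjusted p = 0.220).

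Of 11 measured genes of sterol sensing none passed either, with a median of 0.00352. Srebf2, the SREBP-2 gene, read 8.62, 8.55, 8.57 and 8.43 in wild-type and 8.43, 8.21, 7.92 and 8.13 in transgenic fat. Its highest transgenic value nearly met its lowest wild-type value, and the difference was -0.37 (95% confidence interval -0.61 to -0.13, limma adjusted p = 0.0985). Insig1, which holds SREBP in the endoplasmic reticulum and is itself an SREBP target, had no overlap and differed by -0.47 (limma adjusted p = 0.0508). Of the 8 fits with 1 array left out, Insig1 passed only in that without transgenic replicate 3 (-0.36, limma adjusted p = 0.0308). In the other such fits its limma adjusted p reached 0.139. Srebf1, whose products act mainly on fatty acid synthesis, differed by 0.18 (95% confidence interval -0.01 to 0.38, limma adjusted p = 0.271). Insig2, the Insig gene that sterol does not switch through SREBP, differed by 0.31 (limma adjusted p = 0.0648).

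Among 6 measured SREBP-2 targets outside synthesis, Tmem97, a sterol-regulated membrane protein, was lower (-0.54, SE 0.10, limma adjusted p = 0.0314). Of 14 fatty acid genes under SREBP-1, Thrsp, a promoter of lipogenesis, was higher (0.64, SE 0.12, limma adjusted p = 0.0334), none was lower and the median was 0.06. Of all genes 1.27% were called lower and 2.07% higher. The groups did not overlap for 1 lower and 1 higher gene of the 6, and for 3 of the 14, all higher. Over all 18820 genes they did not overlap for 1078 lower and 1550 higher genes. The calls of Tmem97 and Thrsp were lost on leaving out most single arrays, being kept in 3 of the 8 such fits for Tmem97 and in 2 for Thrsp. The contrast between those medians and that of the members was not tested. None of 7 genes of LXR and cholesterol efflux passed (median -0.01). Abca1, the cholesterol exporter, differed by 0.01 (95% confidence interval -0.13 to 0.15), and its sign changed between settings. None of 6 genes of cholesterol storage and late endosomes passed. All 6 had differences below 0 (median -0.28), where 44.7% of all genes did. The groups did not overlap for 2 of the 6, both lower in transgenic fat, against 5.73% of all genes. Nceh1, a cholesterol ester hydrolase, differed by -1.20 (SE 0.32, limma adjusted p = 0.0830) and Lipa, the lysosomal acid lipase, by -0.84 (SE 0.21, limma adjusted p = 0.0750).

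Of 18 macrophage markers 2 were lower and 1 higher, where 1.27% and 2.07% of all genes were. Their median difference was -0.46 log2 units, and 15 of the 18 were below 0, against 44.7% of all genes. Adgre1, which defines the list, had means of 10.46 in wild-type and 9.67 in transgenic fat. The part of these markers in the members' differences was not tested. Their summed log2 level ran from 163.3 to 177.9 in wild-type and from 159.9 to 166.1 in transgenic arrays, with overlap. Of 14 measured lipid-associated macrophage markers 3 were lower, with sums from 141.3 to 156.0 and from 128.8 to 140.3, without overlap. All 14 had differences below 0, with a median of -0.92. Trem2, which defines that list, had means of 9.79 in wild-type and 7.78 in transgenic fat. The part of this list was not tested either. Wild-type replicate 3 had a mean macrophage marker level of 9.07, inside the transgenic range of 8.89 to 9.23, and a mean lipid-associated macrophage marker level of 10.09, above the transgenic range of 9.20 to 10.02. That array read 8.61 for Mvk and 8.18 for Sqle, between the values of other wild-type arrays. For Mvd (6.69) and Lss (8.88) it was the lowest wild-type array. A single array cannot show how marker levels and members go together, which was not tested. Of 8 measured T cell markers 1 was lower, with sums from 52.4 to 53.9 in wild-type and from 49.1 to 50.8 in transgenic arrays, and of 6 neutrophil markers 2 were lower, with sums from 30.5 to 31.6 and from 28.6 to 31.6. No marker of B cells (7 measured), mast cells (8), endothelium (10), progenitors and fibroblasts (9) or mesothelium (10) passed. Differences below 0 were seen for all 8 mast cell markers and for 5 of the progenitor and fibroblast markers. The same held for 2 B cell, 1 endothelial and 2 mesothelial markers. Of 18 measured adipocyte markers 2 were higher, and the sums of the 18 ran from 208.2 to 211.2 in wild-type and from 211.5 to 213.4 in transgenic fat, without overlap. Their median difference was 0.14, and 5 of the 18 were below 0, against 44.7% of all genes. The groups did not overlap for 8 of them, all higher in transgenic fat, against 1550 of all 18820 genes. The part of these markers in the members' differences was not tested. Adipoq, the adiponectin gene that defines fat cells, had means of 12.17 and 12.48. Of 7 measured markers of the epididymal epithelium 5 had means under the 25th percentile of genes (4.49).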

How the data were processed

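Per the labels' protocols, whole-transcript cDNA was made from the RNA of each sample, and biotin is given as the label of these single-colour arrays. Per the submitters' processing notes the authors used RMA (background correction, quantile normalisation, probe summary), with version and settings not given in the sources used here, and deposited 1 log2 value per probe set and array. Of 35556 probe sets 21218 had 1 gene symbol, 1881 several and 12457 none in the platform annotation. Symbols were updated through the Entrez identifier for 21185, and the probe set with the highest mean was kept for each of 18820 genes. Fdft1 also appears on probe sets that carry another gene, which were not used. Array medians lay between 5.97 and 6.04. The precision is limited by the number of arrays.

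The comparison used lmFit and eBayes of limma 3.58.1 (R 4.3.3; two-sided, no filter, no block) with Benjamini-Hochberg adjustment over all genes at 0.05. Differences are transgenic minus wild type. On simulated data of the same design with 18820 genes, 58% of 50 genes changed by 0.5 log2 units were called and 90% of 50 changed by 1. The simulated noise was drawn independently for each gene and array. It held no deviations shared by many genes of an array, such as those of transgenic replicate 3. How far these shares hold for the real arrays was not tested. The members, the 8 pathway lists and the 11 marker lists were chosen with earlier results of these data known. Named were the members, every pathway-list gene past the threshold, a fixed panel (Mmab, Cyp51, Srebf1, Srebf2, Insig1, Abca1 and genes not analysed here) and the 5 genes most like the members' mean; Ggps1, Nus1, Coq2, Insig2, Nceh1 and Lipa were named after their values were seen. Some listed genes were not analysed here. Alternatives covered normalisation, filters, the prior, weights, blocks, probe sets, thresholds and left-out arrays. Python 3.11.15 and matplotlib 3.10.9 drew the figures.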

Additional observations from a re-analysis of the deposited data

Results flagged for a closer look

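In the 52 groups of 4 arrays examined (26 named genes in both groups), 1 array stood far from the other 3, where chance gives about 1 in 20. It was wild-type replicate 3 for Dhcr7, at 8.68, below the other wild-type arrays and above every transgenic array.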

How the results depend on the processing

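Over the alternatives, counting each left-out array, 162 of 206 differences of members kept their direction and their side of the threshold, 41 lost the call, 2 gained it (both Fdft1) and 1 changed sign (Pmvk, -0.0062 without transgenic replicate 2; it ran up to 0.16 on leaving out 1 array). Among the other named genes 308 of 390 kept both, 53 lost the call, 17 gained it (Cyp51, Insig1, Ptger3 and Srebf2) and 12 changed sign. Mir687 changed sign to -0.0213 with the array-name number as a block, and on leaving out 1 array ran from -0.0595 (transgenic replicate 1; -0.0385 for replicate 2) to 0.21, and Uchl3 to 0.0113 with the letter as a block. Abca1 changed sign to -0.0213 on a second quantile normalisation, -0.0173 with array weights, -0.0798 with the letter as a block, -0.0416 without transgenic replicates 2 and 3 (the suffixed names) and -0.0348 without replicate 3 of both groups, and it ran from -0.0224 to 0.0394 on leaving out 1 array. The counts of genes, of members and of pathway-list genes past the threshold were 629, 4 and 6. With single arrays left out they ran from 82 to 1188, from 0 to 3 and from 1 to 12. They were 70, 0 and 0 with the letter as a block, 72, 0 and 1 with the number, 18, 0 and 0 without the suffixed arrays, and 69, 0 and 1 at a threshold of 0.01. At 0.1 there were 1537 genes and 16 pathway-list genes, with array weights 1263 and 13, and with genes under the median gene removed 1295 and 17. A filter at the 25th percentile gave 10 pathway-list genes, and removal of replicate 3 of both groups, added after the data were seen, gave 12. Equalising array medians left 3 members, with Lss at -0.58 (limma adjusted p = 0.0503). Except for the left-out arrays and the filter at the median gene, which removes Mvd, the cause was not tested. With the replicate number as a replicate block the counts were 93, 2 and 2, and Mvk (limma adjusted p = 0.0897) and Sqle (0.102) lost their calls; deviations of same-numbered arrays correlated at 0.057 to 0.102 and 2 of 8 arrays correlated best with their own number, so the numbers were not taken to pair the arrays. All members had means above the 25th percentile of genes.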
